A study of Danio rerio with 3 samples.

Results

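The genes described here are those of the Bmp and Tgf-beta signalling family in muLECs, the mural lymphatic endothelial cells that lie over the adult zebrafish brain. They were chosen by name, from symbols beginning with bmp and a digit, bmpr, smad, acvr, tgfb, gdf and a digit, ltbp, inhb or grem, together with id1 to id4, eng and nog1 to nog3, these last with or without a final a or b. Symbols are spelled as in the table of gene IDs, which writes many in human style. This gave 81 gene IDs of the 32105 in the count table, of which 26269 carried a symbol. No ID carried the symbol eng, nog1 or nog3. A pair of IDs with the symbol NOG fell outside the name rule and had 0 reads in every library.

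All 3 RNA-seq libraries came from one group, wildtype adults carrying a lyve1 DsRed reporter. Brain cells were freed with Liberase, an enzyme blend, DsRed-positive cells were sorted by fluorescence, and the RNA was amplified before sequencing. Each library pooled 6 brains, and the labels name 1 cell population, with no sex or exact age of the fish. The study's title concerns the part of these cells in the growth of meningeal blood vessels, and the comparison possible here is between genes within the sorted cells.

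Bmp, growth and differentiation factor, activin and Tgf-beta ligands are secreted dimers that bind a type II receptor kinase, which then activates a type I receptor kinase. The type I receptor phosphorylates receptor-regulated Smad proteins: Smad1, Smad5 and Smad9 for Bmp type receptors, and Smad2 and Smad3 for activin and Tgf-beta type receptors. These join the common partner Smad4 and enter the nucleus, where Bmp signals induce the Id genes, which encode inhibitors of helix-loop-helix transcription factors. In endothelium the branch through the type I receptor Alk1, encoded by acvrl1, is known for its part in vessel stability and arteriovenous connections.

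The libraries held 36044297, 35168650 and 34307745 reads in genes. A floor of 3 reads came to 0.0794, 0.107 and 0.0729 CPM (reads scaled to a common library size with edgeR TMM factors), and covers counting error alone, since amplified reads are not independent molecules. Of 11 tested lymphatic endothelial markers 8 stood above the median gene in edgeR, and of 9 tested pan-endothelial markers 6 did, against 23.3% of all tested genes. Of the lymphatic markers, MRC1, stab2 and lyve1b had mean levels of 4290, 615 and 605 CPM. Reads of cdh5, which encodes the cadherin of endothelial junctions, were 0, 3 and 0. Those of kdrl, a Vegf receptor gene, were 3, 1 and 1, so both of these pan-endothelial markers were at the floor. PROX1 (ENSDARG00000055158), the lymphatic identity gene, had 614, 1213 and 1 reads, and lyve1a 0, 976 and 754. Genes listed as markers of other cells were also present. Of 2 tested pericyte and smooth muscle markers 2 stood above the median gene. RGS5 came to 148, 651 and 18.6 CPM, while PDGFRB and NOTCH3 were at the floor. Summed macrophage and microglia markers came to 1090, 1030 and 3310 CPM in replicates 1, 2 and 3, and summed oligodendrocyte markers to 674, 2390 and 783 CPM. Replicate 3 held 9739 gene IDs with at least 10 reads, against 7472 and 6117 in replicates 1 and 2. In bulk RNA, fewer cells that express a gene and less of its RNA per cell cannot be told apart.

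Of the 81 genes, 23 had at least 10 reads in 2 or 3 libraries (28.4%), close to the 25.8% of all gene IDs with a symbol. In all 3 libraries 17 reached 10 reads (21.0%, against 15.0%). A further 11 reached 10 reads in 1 library alone (13.6%, against 17.4%), and 47 in none (58.0%, against 56.8%), of which 29 had no read at all. By role, all 5 Id genes and 5 of 6 receptor-regulated Smad IDs passed the read filter, whereas 4 of 31 ligand IDs, 2 of 11 type I receptor IDs and 3 of 9 type II receptor IDs did. No ID of the common Smad, the inhibitory Smads, the secreted antagonists or the co-receptor passed.

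**Figure D1:**
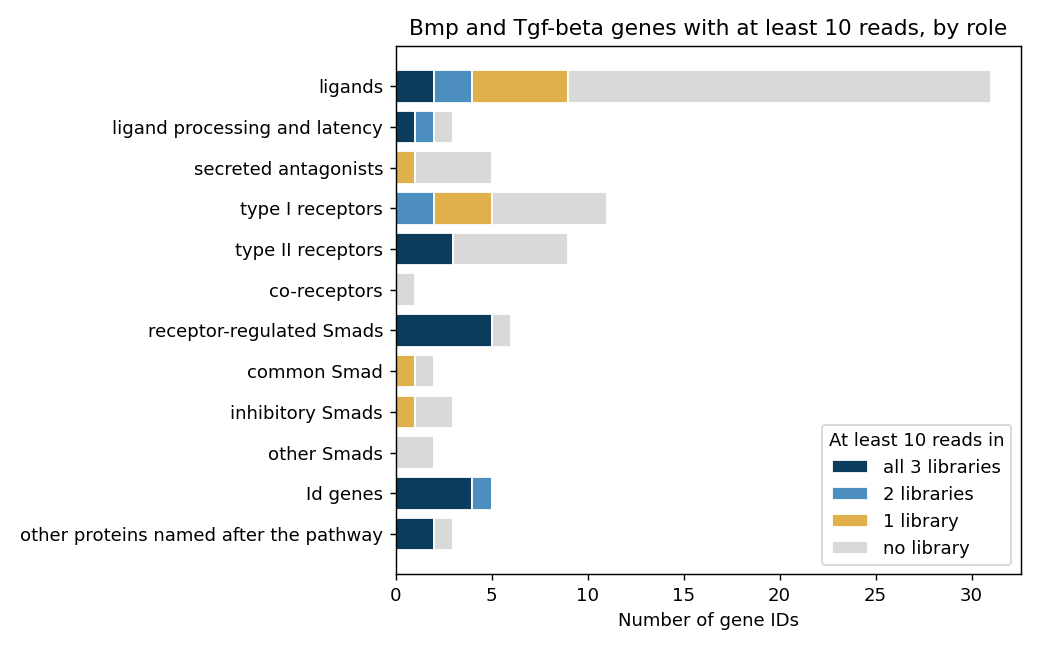
Number of gene IDs in each role by how many of the 3 libraries held at least 10 reads of the gene; each bar is split into IDs reaching that count in all 3, in 2, in 1 or in no library. Among the 31 ligand IDs, 22 reached it in no library, and 4 of the 5 Id genes reached it in all 3.

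The 23 genes that passed were compared with the median tested gene of each library by an edgeR quasi-likelihood test over all 7111 tested genes. Reads were not divided by gene length, so a ratio to the median gene is a ratio of reads and not of transcript numbers. At a Benjamini-Hochberg adjusted p under 0.05, 9 of the 23 stood above the median gene, 14 did not pass and 0 stood below. Of all tested genes 23.3% stood above it and 1.2% below. On simulated counts the test called below only 2% of genes placed at 0.25 of the median gene, and 6% of those at 0.0625. Placed genes kept the spread fitted to the genes they replaced, so these shares are a rough guide. The count of 0 below therefore says little about low members. With at least 10 reads required in all 3 libraries 5 of 17 stood above, and bmp16, TGFBR2 (ENSDARG00000034541), SMAD1 and SMAD5 no longer passed. With the filter applied anew to 2 libraries, 5 of 21 stood above without replicate 1, 8 of 19 without replicate 2 and 4 of 17 without replicate 3. The share of all genes above under these filters is not given here, and the 23.3% does not apply to them. Their counts thus cannot be set against the 9 of 23. For those below, edgeR found 0 members at an unadjusted p under 0.05, DESeq2 called 0 (0.0% of all genes) and limma-trend called 2 (14.7% of all genes), BMP2 (ENSDARG00000041430) and SMAD2. The median log2 ratio was 1.36 over the 23 genes and 0.22 over all 7111. Over the 9 genes called the median coefficient of variation of CPM was 0.239, against 0.408 over all 1658 genes called.

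Among ligands, bmp16 had the steadiest reads. It is a Bmp ligand gene of fish, related to Bmp2 and Bmp4, and had 1771, 1674 and 1753 reads in replicates 1, 2 and 3. The libraries lay within 1.40 times of each other. The mean was 49.8 CPM ± 8.95 (SD, n = 3), which put it 2.02 ± 0.55 (SE) log2 units above the median gene (edgeR adjusted p = 0.00301). Its coefficient of variation was 0.18, smaller than that of 84.5% of the genes called above the median gene. The call was lost where 10 reads were required in all 3 libraries, which raises the level of the median gene (log2 ratio 0.79, edgeR adjusted p = 0.197). It was also lost with the filter applied anew without replicate 1 (1.17) and without replicate 3 (0.95).

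The gene for Tgf-beta 1 had 2 copies, and neither passed. The tgfb1a copy had 805, 722 and 447 reads, or 19.3 CPM ± 7.66, with no call (log2 ratio 0.66 ± 1.01, adjusted p = 0.802, edgeR). The tgfb1b copy had 588, 4 and 398 reads (log2 ratio -0.58 ± 1.58, adjusted p = 0.927, edgeR). The highest library of tgfb1a was 2.37 times the lowest, whereas tgfb1b was near the floor in replicate 2 alone.

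BMP2 (ENSDARG00000041430), a Bmp ligand gene known from bone formation, had 0, 54 and 16 reads, and its other ID 1, 0 and 0. The first thus had no read in replicate 1 and few in the others. By edgeR its log2 ratio was -3.94 ± 1.47 (SE) and did not pass (adjusted p = 0.258). Limma-trend placed it below the median gene at -3.11, and so did edgeR on refiltering without replicate 1, at -4.42.

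Several Bmp ligand genes known from endothelium and iron regulation were at or near the floor. BMP6, a ligand that liver endothelial cells release to control hepcidin in mammals, had 1, 2 and 1 reads, and BMP4 had 12, 4 and 3. GDF2 and BMP10, which encode the Alk1 ligands Bmp9 and Bmp10, had 0 reads in every library. TGFB2 had 0 reads, TGFB3 1, 0 and 0, bmp7a 1, 0 and 0, and tgfb5 6, 2 and 1. None of the 4 IDs for the activin subunits INHBA and INHBB had more than 1 read in any library. GDF7 had 2, 0 and 0 reads, and BMP3, BMP5, GDF5, GDF9, gdf3, gdf6a, gdf6b, gdf11 and the second GDF10 ID had none.

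A set of 5 ligand IDs reached 10 reads in a single library. GDF10 (ENSDARG00000095378), a Bmp3-like ligand gene, had 0, 1429 and 0 reads, so that the gene was present in replicate 2 alone. BMP7 (ENSDARG00000063230) had 3, 3 and 400 reads, BMP8A 0, 0 and 72, and bmp15, a ligand gene known from the ovary, 0, 0 and 14. The fifth was BMP4, through 12 reads in replicate 1. Summed over all 31 IDs, ligand reads came to 84.5, 139 and 75.5 CPM, and the excess in replicate 2 was largely the 51.0 CPM of GDF10.

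Genes that act on ligands outside the cell were uneven. BMP1 encodes an astacin protease that trims procollagen and the Bmp antagonist chordin, not a ligand. Its ID ENSDARG00000028053 had 2, 2624 and 606 reads and did not pass (log2 ratio 1.61 ± 1.11, adjusted p = 0.295, edgeR). With the tested genes kept, it passed without replicate 1 (2.19) and without replicate 3 (2.00). With the filter applied anew, it was not called without replicate 1 and was not tested without replicate 3. The other ID, ENSDARG00000028071, had 401, 499 and 100 reads and did not pass (log2 ratio -0.23 ± 1.38, adjusted p = 0.966, edgeR). LTBP1, a latent Tgf-beta binding protein gene, had 1, 0 and 0 reads. Of 5 IDs for secreted antagonists of Bmp ligands, 4 reached 10 reads in no library. The GREM1 IDs had 0, 4 and 0 and 0, 1 and 0 reads, and nog2 had none.

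Type II receptors were represented by 3 IDs that were present in every library. ACVR2A, an activin receptor gene whose product also binds Bmp ligands, had 5409, 3360 and 3600 reads. The highest library was 1.64 times the lowest. Its mean was 117 CPM ± 28.0 (SD, n = 3), 3.25 ± 0.37 (SE) log2 units above the median gene (edgeR adjusted p = 3.96e-07), and it passed under all 11 other settings tried.

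TGFBR2 encodes the Tgf-beta type II receptor and had 2 IDs. ENSDARG00000034541 had 1637, 1525 and 2525 reads, or 53.1 CPM ± 9.11, and stood 2.11 ± 0.53 (SE) log2 units above the median gene (edgeR adjusted p = 0.00156). ENSDARG00000059363 had 1258, 1401 and 781 reads, or 34.1 CPM ± 15.5, and did not pass (1.49 ± 0.71, adjusted p = 0.105, edgeR). Both IDs were well above the floor in all 3 libraries, and their sum lay between 76.6 and 105 CPM. The call of the first was lost where 10 reads were required in all 3 libraries (0.90, edgeR adjusted p = 0.132), and on refiltering without replicate 1 (1.40) and without replicate 3 (0.83). The difference between the copies was not tested.

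BMPR2, the Bmp type II receptor gene, had 0, 1 and 1 reads in one ID and no read in the other. The ACVR2B IDs had 0, 0 and 7 reads and 1, 1 and 0, and acvr2ab and tgfbr2l had no read. Of 9 type II receptor IDs, 5 therefore stayed at or under 3 reads in every library.

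Type I receptors were less even than these. Of 11 IDs 0 reached 10 reads in all 3 libraries, beside 15.0% of all gene IDs with a symbol. Uneven reads were common, with a median coefficient of variation of CPM of 0.868 over all 7111 tested genes. The Alk1 gene acvrl1 had 9, 2048 and 764 reads. It did not pass (log2 ratio 1.36 ± 1.05, SE, adjusted p = 0.398, edgeR). Without replicate 1 it was called with the tested genes kept, at 1.94, but not with the filter applied anew. The level in replicate 2 was 307 times that in replicate 1, so the gene was low in a single library and well detected in the others. The gene acvr1l, which encodes the zebrafish Bmp type I receptor Alk8, had 43, 1 and 583 reads and did not pass (-1.31 ± 1.76, adjusted p = 0.822, edgeR); without replicate 3 its mean was 0.587 CPM, against 5.12 CPM over all libraries.

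A further 3 type I receptor IDs were present in replicate 3 alone. The BMPR1A IDs, for the Alk3 receptor, had 1, 0 and 701 reads and 3, 2 and 206 reads. TGFBR1 (ENSDARG00000017494), the Tgf-beta type I receptor gene, had 0, 1 and 573 reads, and its other ID none. The remaining IDs, for ACVR1B, ACVR1C, bmpr1ba and bmpr1bb, had at most 3 reads in any library, and TGFBR3, the co-receptor betaglycan, had none.

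Summed over IDs, type I and type II receptors differed in their spread. Type II receptor reads summed to 220.0, 225 and 168 CPM, a ratio of 1.34 between the highest and lowest library. Type I receptor reads summed to 1.56, 73.3 and 68.7 CPM, a ratio of 47.0. In replicate 1 type I receptor reads were thus nearly missing while type II receptor reads were at 220.0 CPM, in replicate 2 they were almost wholly acvrl1, and in replicate 3 they were spread over 5 IDs. These sums were formed after the values were seen, and carry no test.

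Replicate 3 held 8 of the 11 family members found in 1 library alone, among them BMPR1A, TGFBR1 and BMP7. Over all gene IDs with a symbol, 2727 of the 4579 found in 1 library alone were in replicate 3, where 35.0% of such IDs reached 10 reads, against 26.9% in replicate 1 and 22.2% in replicate 2. Of the 9 matched macrophage and microglia markers, 3, 4 and 6 had at least 10 reads in replicates 1, 2 and 3. Among them csf1ra had 0, 3 and 102 reads, SPI1 was highest in replicate 2 at 7, 1500 and 14, and spi1a had 0 in all. For the 10 matched fibroblast and meningeal markers the counts were 6, 6 and 7, and for the 8 matched neuron markers 6, 5 and 5. The part of any of these cell types in the reads found in replicate 3 alone was not tested.

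**Figure D2:**
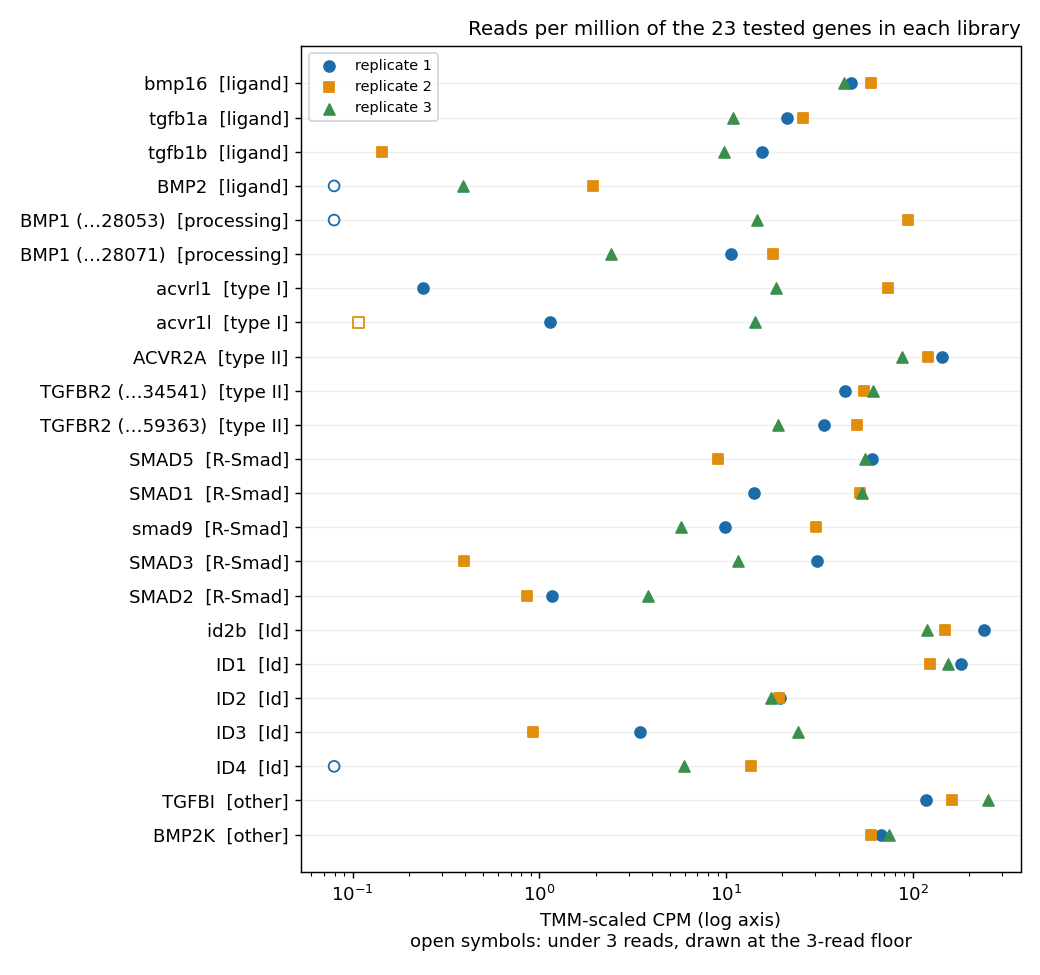
TMM-scaled CPM, on a log axis, of the 23 tested genes in each library, grouped by role; each symbol is 1 library, and open symbols mark fewer than 3 reads, drawn at that library's floor. Symbols of bmp16, ACVR2A, BMP2K, ID1 and ID2 lie close together, whereas those of acvrl1, acvr1l, ID4, tgfb1b and BMP1 (ENSDARG00000028053) spread over 109 to 1180 times as drawn.

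Receptor-regulated Smads of the Bmp branch were present in every library. SMAD5 had 2270, 252 and 2274 reads, a mean of 41.5 CPM ± 28.2 (SD, n = 3), and stood above the median gene (log2 ratio 1.72 ± 0.69, SE, adjusted p = 0.0434, edgeR). SMAD1 had 534, 1458 and 2191 reads, a mean of 39.8 CPM ± 22.3, and also passed (1.70 ± 0.67, adjusted p = 0.0395, edgeR). SMAD5 was thus low in replicate 2, and SMAD1 was low in replicate 1.

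Both Smad calls were near the threshold. SMAD5 no longer passed by edgeR when replicate 1 (log2 ratio 1.35, adjusted p = 0.464) or replicate 3 (1.47, adjusted p = 0.501) was left out, nor with DESeq2 or limma-trend. SMAD1 no longer passed by edgeR when replicate 2 (1.41, adjusted p = 0.205) or replicate 3 (1.48, adjusted p = 0.494) was left out, nor with DESeq2. The third Bmp branch gene, smad9, had 373, 850 and 237 reads and did not pass (0.35 ± 1.17, adjusted p = 0.935, edgeR). Although each of the 3 varied by 3.77 to 6.68 times between libraries, their sum was 84.1, 91.5 and 114 CPM, a ratio of 1.36. This sum was also formed after the values were seen.

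Neither tested Smad gene of the Tgf-beta branch passed. SMAD3 (ENSDARG00000036096) had 1154, 11 and 471 reads and did not pass (0.16 ± 1.34, adjusted p = 0.975, edgeR); its other ID had no read. SMAD2 had 44, 24 and 157 reads, with a log2 ratio of -2.68 ± 1.5 (adjusted p = 0.479, edgeR). It was called below by edgeR where 10 reads were required in all 3 libraries (-3.79) and on refiltering without replicate 3 (-4.73). SMAD2 had fewer reads than the median tested gene in all 3 libraries, and its sum with SMAD3 was 31.7, 1.25 and 15.3 CPM.

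The common partner SMAD4 was at or near the floor, with 2, 0 and 0 reads in one ID and 1, 0 and 26 in the other. Inhibitory Smads, which Bmp and Tgf-beta signals induce and which block the receptors, were likewise scarce. SMAD6 (ENSDARG00000053209) had 2, 1 and 88 reads, its other ID none, and SMAD7 none. The IDs smad10a and smad10b had at most 9 reads. At this depth SMAD4 and SMAD7 were not detectable above the floor in replicates 1 and 2, which does not show that their RNA was absent from the cells.

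Among Id genes, ID1 and id2b stood high in all 3 libraries. ID1 had 6888, 3458 and 6365 reads, a mean of 154 CPM ± 29.4 (SD, n = 3), and stood 3.63 ± 0.34 (SE) log2 units above the median gene (edgeR adjusted p = 3.59e-08). The reads of id2b were 9110, 4137 and 4908, with a mean of 169 CPM ± 63.7 and a log2 ratio of 3.78 ± 0.35 (adjusted p = 2.64e-08, edgeR). Both genes were highest in replicate 1, and both passed under all 11 other settings and all 3 refiltered fits of 2 libraries.

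The symbol ID2 had 736, 535 and 715 reads. At 18.7 CPM ± 1.12 its coefficient of variation of 0.0601 was the smallest of the 23 tested family members, with the highest library 1.12 times the lowest. Its log2 ratio of 0.60 ± 1.03 did not pass (adjusted p = 0.830, edgeR), so this gene was steady at a level near that of the median gene. The standard error comes from a fit that shares the spread among genes of like level, and is larger than the spread of this gene's own 3 libraries.

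ID3 and ID4 differed between libraries. ID3 had 131, 26 and 1000 reads, and its mean of 9.57 CPM was 2.20 CPM without replicate 3. ID4 had 2, 381 and 246 reads, with 6.55 CPM ± 6.80. Neither passed (adjusted p = 0.947 and 0.891, edgeR). Over the 5 Id genes the summed level was 447, 305 and 322 CPM, most of it from ID1 and id2b in each library.

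**Figure D3:**
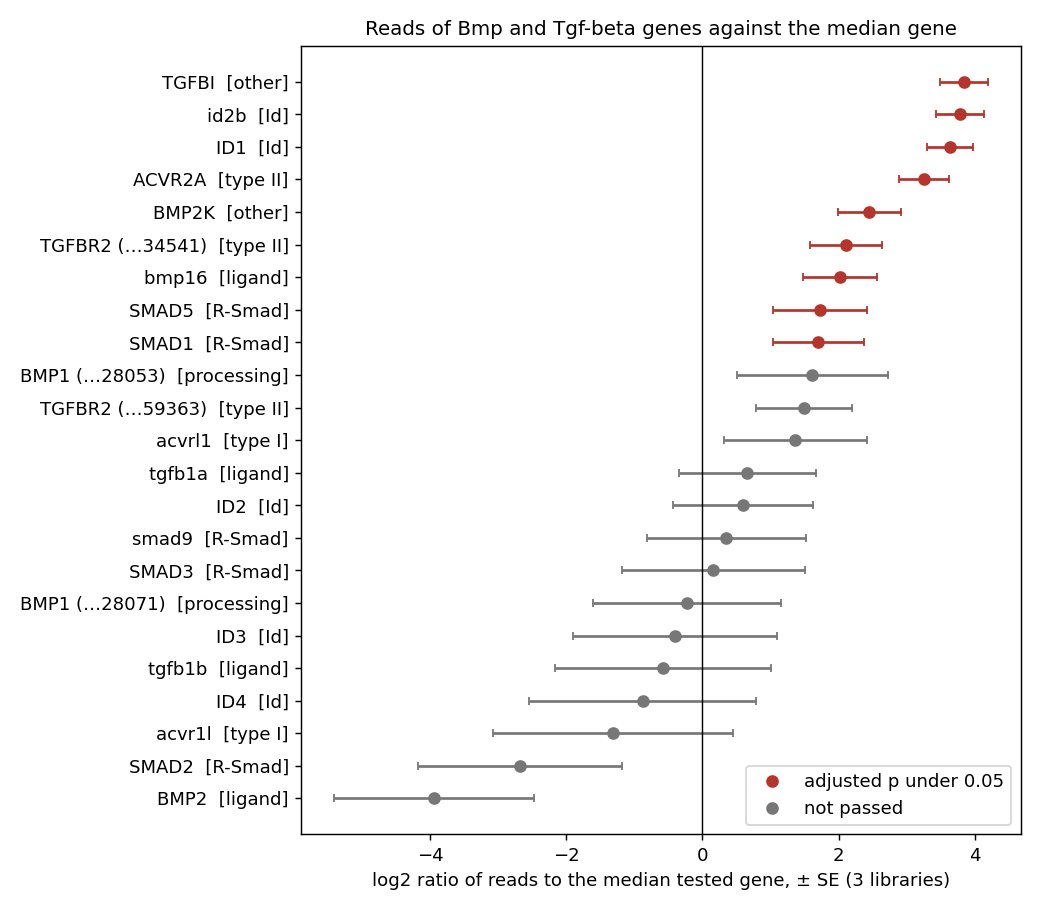
Log2 ratio of reads to the median tested gene for the 23 tested genes, with the standard error of the edgeR fit to 3 libraries. That fit shares the spread among genes of like level. Red points passed at an adjusted p under 0.05 in edgeR and grey points did not. The 9 genes that passed run from SMAD1 at 1.70 to TGFBI at 3.84, and standard errors run from 0.34 for ID1 to 1.76 for acvr1l.

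Some genes chosen by name encode no ligand, receptor or Smad. TGFBI, a secreted matrix protein gene first found as a target of Tgf-beta, had 4416, 4538 and 10383 reads. The mean was 177 CPM ± 69.0 (SD, n = 3), or 3.84 ± 0.35 (SE) log2 units above the median gene (edgeR adjusted p = 2e-08). It was highest in replicate 3, and the mean without that library was 140.0 CPM. BMP2K, a kinase gene named for its induction by Bmp2, had 2548, 1677 and 3078 reads. Its mean was 67.4 CPM ± 7.46, or 2.45 ± 0.46 log2 units above the median gene (edgeR adjusted p = 9.98e-05), and it lost its call only on refiltering without replicate 3, at 1.23. TGFBRAP1, a gene for a receptor-associated protein, had 0, 1 and 0 reads.

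The symbol table gave 1 symbol to 2 IDs for 16 symbols, covering 32 of the 81 IDs. Neither ID passed the read filter for 12 of them (75.0%), against 57.2% of all 1645 symbols held by 2 IDs. A single ID passed for BMP2 and SMAD3 (12.5%, against 30.0%), and both passed for BMP1 and TGFBR2 (12.5%, against 12.8%). The BMPR1A IDs, with 701 and 206 reads in replicate 3, were among the 12. Whether reads of near-identical copies were split in counting could not be checked.

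Other genes of the pathway were taken from a list of 119 symbols in 7 groups, of which 97 were matched to an ID. The read filter was passed by 32, and 8 of these stood above the median gene, beside 23.3% of all tested genes. None stood below by edgeR, with 1 at an unadjusted p under 0.05, while DESeq2 called 0 and limma-trend 4 (14.7% of all genes). As for the members, the edgeR test seldom called simulated low genes below. The median log2 ratio of the 32 was 0.43, and that of all tested genes 0.22.

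Extracellular modulators were led by FSTL1 (ENSDARG00000039576), which encodes a secreted follistatin-like glycoprotein that binds ligands of the family. It had 49697, 58567 and 30966 reads and stood 6.83 ± 0.35 (SE) log2 units above the median gene (edgeR adjusted p = 5.32e-13). It was the only one of the 5 tested modulators to pass, beside 23.3% of all tested genes. The other FSTL1 ID had 116, 311 and 75 reads and did not pass (log2 ratio -1.17 ± 1.59, adjusted p = 0.822, edgeR). The follistatin-like gene FSTL3 had 2958, 30 and 881 reads and tsukushi, TSKU, 1235, 12 and 2299, and both were lowest in replicate 2. Chordin, chrd, had 1, 0 and 19 reads and FST (ENSDARG00000052846), for follistatin, 21, 0 and 0.

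Of other ligands of the family, the myostatin gene mstna was the only one of 9 matched to be tested, with 3, 394 and 1433 reads (log2 ratio 0.40 ± 1.35, adjusted p = 0.936, edgeR). Its copy mstnb had 0, 1 and 593 reads and the anti-Müllerian hormone gene amh 0, 0 and 14. All were highest in replicate 3. Of the co-receptors and decoys, BAMBI (ENSDARG00000055381), a receptor without a kinase domain, had 977, 1344 and 222 reads and did not pass (1.13 ± 0.89, adjusted p = 0.432, edgeR), and RGMB had reads in replicate 3 alone, 140 in number.

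None of the 6 tested genes of latency, activation and matrix carriage passed, by edgeR, beside 23.3% of all tested genes. Decorin, DCN, which is also a marker in the fibroblast list, had 204, 1005 and 952 reads. The integrin gene ITGAV, whose product helps release latent Tgf-beta, had 4, 537 and 1298, and FURIN (ENSDARG00000062909), a protease gene of ligand maturation, 11, 611 and 1022. All 3 were lowest in replicate 1.

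Of the cytoplasmic regulators 2 of 7 tested genes passed, and of the nuclear partners 2 of 8, beside 23.3% of all tested genes. The gene fkbp1aa, whose mammalian product FKBP12 holds type I receptors inactive, had 6177, 3057 and 8209 reads (log2 ratio 3.66 ± 0.35, SE, adjusted p = 3.71e-08, edgeR). Its copy fkbp1ab had 2417, 429 and 711 reads and did not pass (1.37 ± 0.78, adjusted p = 0.196, edgeR). SMURF1, a ubiquitin ligase gene acting on Smad1, Smad5 and receptors, had 3855, 1104 and 2677 reads (2.47 ± 0.48, adjusted p = 0.000134, edgeR). Its call was lost on refiltering without replicate 1 (1.29) and without replicate 3 (1.43). LARP7, in the same list, had 2009, 550 and 1745 reads and did not pass (1.62, adjusted p = 0.0506, edgeR).

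Among nuclear genes the co-repressor genes TGIF1 and skilb passed. TGIF1 had 8950, 1434 and 4273 reads (log2 ratio 3.39 ± 0.44, SE, adjusted p = 9.79e-07, edgeR). The reads of skilb, whose mammalian product SnoN binds Smad proteins, were 2059, 3120 and 3726 (2.80 ± 0.43, adjusted p = 1.13e-05, edgeR). Its copy, under the symbol SKIL, had 1, 0 and 0 reads. EP300 (ENSDARG00000100666), a co-activator gene, had 601, 1447 and 323 reads and did not pass (1.07 ± 0.90, adjusted p = 0.490, edgeR). In each library TGIF1 and skilb had at least 1434 reads, above that library's median tested gene.

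Of the targets other than Id genes, 4 were tested and 3 passed, beside 23.3% of all tested genes. Both JUNB IDs stood high, ENSDARG00000104773 with 33044, 15360 and 77327 reads (log2 ratio 6.46 ± 0.36, SE, adjusted p = 2.02e-12, edgeR) and ENSDARG00000074378 with 6624, 6754 and 8518 (4.08 ± 0.32, adjusted p = 3.09e-09, edgeR). JUNB is also an immediate early gene that many other stimuli induce. The Bmp target gene atoh8 had 3, 59 and 545 reads and did not pass (-1.29 ± 1.72, adjusted p = 0.819, edgeR). The levels of atoh8, of TGFBI and of JUNB (ENSDARG00000104773) were highest in replicate 3. JUNB (ENSDARG00000074378) was highest in replicate 2, at 175, 241 and 207 CPM, and ID1 and id2b in replicate 1. The summed macrophage and microglia markers, mostly apoeb, were also highest in replicate 3. Their part in any of these levels was not tested.

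**Figure D4:**
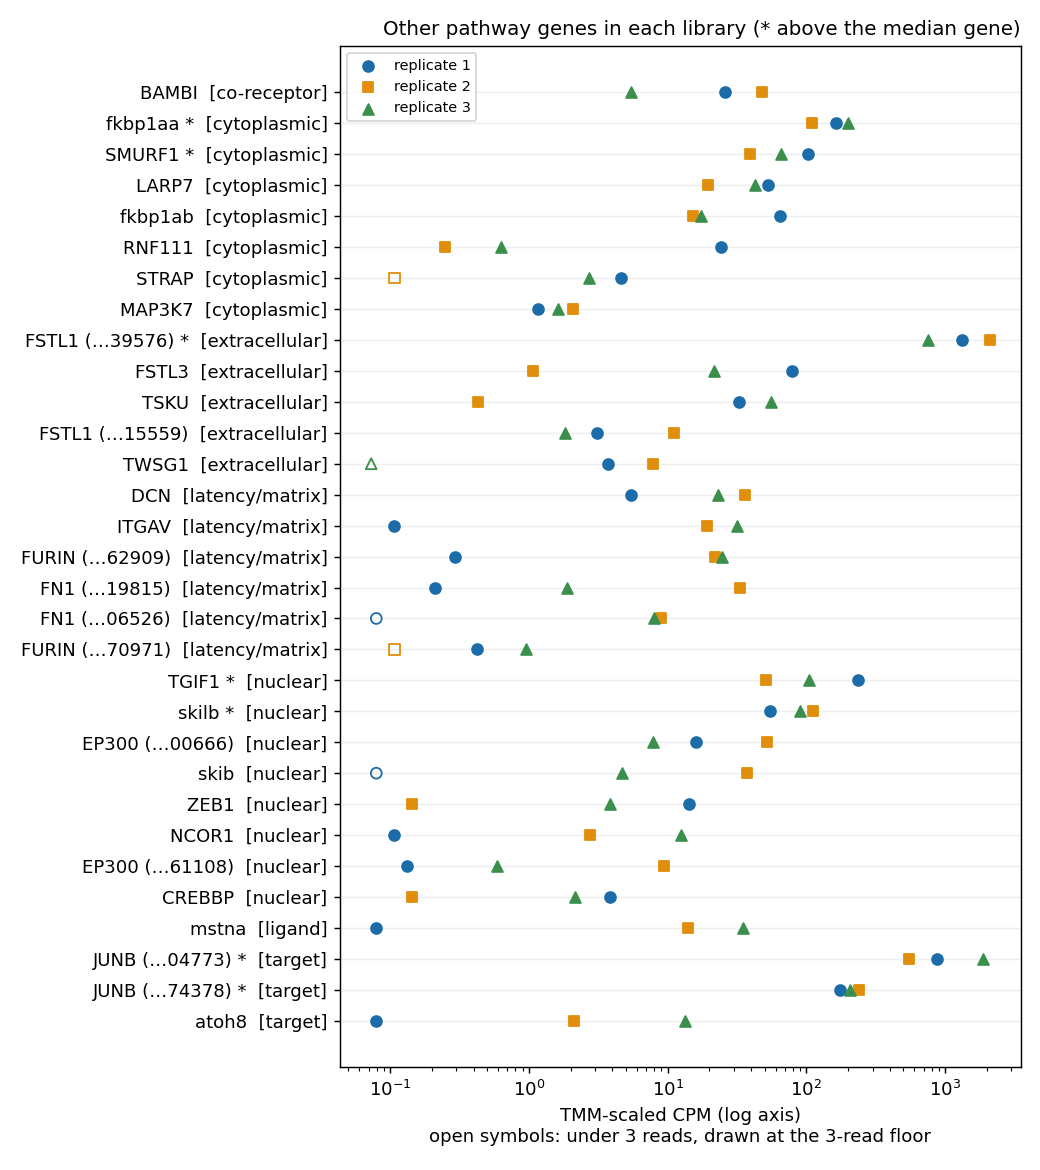
TMM-scaled CPM, on a log axis, of 31 of the 32 other pathway genes that passed the read filter, by group; each symbol is 1 library, open symbols mark fewer than 3 reads at that library's floor, and asterisks mark the 7 IDs shown that were above the median gene in edgeR. FSTL1 (ENSDARG00000039576) lies farthest to the right, and among those marked TGIF1 shows the widest spread, 4.63 times between its highest and lowest library.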

How the data were processed

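The deposited table gives counts, as whole reads for each Ensembl gene ID and library, on which the authors made no scaling that the values show. A second deposited table holds the authors' YuGene score, from 0 to 1, recomputed here from the counts to within 1.59e-13. Per the submitters' processing notes, GRCz10, bcl2fastq and R 3.2.2 were used; aligner, counter and strand are not stated. File columns named pvLEC were matched to samples by replicate number.

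Genes that reached 10 reads in 2 or more libraries entered the test. In edgeR 4.0.16 the intercept of a quasi-likelihood fit was tested against 0, two-sided, the offset being the log of the median reads of tested genes in that library. The steps of glmQLFTest were written out for this 1-column design and checked on simulated counts. Genes placed at 4 times the median gene were called above in 28% of cases, and those at 16 times in 94%. Those placed at 0.25 and 0.0625 of it were called below in 2% and 6%. Each placed gene kept the spread fitted to the gene it replaced, not that of its new level. The read filter was not applied anew, so these shares are a rough guide to real genes. P-values and standard errors rest on the spread between 3 pools of brains, shared among genes of like level. They do not measure the spread of each gene alone. TMM factors were 1.05, 0.796 and 1.20. Gene lengths and sequences were not used here. A few genes that enter the fit and the counts are not reported here by name.

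Named members were those called, the 12 of highest mean CPM and a set of canonical members. Of other pathway genes, those called and up to 3 of highest mean CPM per group were named. Chosen after their values were seen were chrd, FST, atoh8, fkbp1ab, SKIL, the other FSTL1 ID and the members of single libraries beyond these. The members and lists were chosen with earlier results of these data known. The 11 other settings were TMM offsets, DESeq2 1.42.0, limma-trend (3.58.1) with pseudocounts of 1 and 0.1, no filter, 10 reads in all 3 libraries, counts under 2% of a gene's highest set to 0, YuGene scores, and leaving out each library.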

Additional observations from a re-analysis of the deposited data

How the results depend on the processing

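The counts above the median gene moved most with the filter, which sets the median gene, and the counts below it moved most with limma-trend and YuGene scores. With no filter the median gene had 3, 1 and 17 reads. Above it stood 26 of 52 family members and 35 of 75 other pathway genes. With at least 10 reads required in all 3 libraries the median gene had 1042, 917.5 and 1062.5 reads. Of 17 members 5 then stood above and 1 below. Of 18 other pathway genes 7 stood above and 1 below. Limma-trend placed 2 of 23 members and 4 of 32 other genes below with a pseudocount of 1, against 14.7% of all genes. With a pseudocount of 0.1 it placed 1 and 1 below. YuGene scores placed 2 of 23 members and 6 of 32 other genes below. For these settings, apart from limma-trend with a pseudocount of 1, the share of all genes called is not given here. Those counts therefore cannot be set against it. At least 1 read in any library was found for 52 of 81 members, and for 18455 of all 32105 gene IDs.

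Leaving out replicate 1, 2 or 3 with the tested genes kept gave 10, 8 and 8 of 23 members above. Of all genes 22.1%, 21.5% and 21.6% stood above. Of 32 other genes 8, 11 and 7 did, and 0 members stood below. With the filter applied anew, an alternative chosen after seeing the data, 5 of 21, 8 of 19 and 4 of 17 members stood above. Below it stood 0 to 1 members and 1 to 2 other genes. The share of all genes in these refiltered fits is not given here. The calls of ID1, id2b, ACVR2A and TGFBI were kept under every alternative run. The call of SMAD1 was lost under 6 of the 11 other settings and that of SMAD5 under 8, and no called gene changed sign. The fit per gene length was not run, since no exon or coding length was at hand. No paired analysis was possible because the study has a single group. With 3 libraries, and many genes near 0 reads in 1 of them, absence of a call says little for genes of uneven reads. Absence of an edgeR call below says little for any gene, since simulated low genes were seldom called.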
